A study of Mus musculus with 6 samples.

Results

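The ankyrin and spectrin genes of the axonal membrane skeleton were followed in purified retinal ganglion cells (RGCs), the projection neurons of the retina whose axons form the optic nerve. The 6 genes described were taken by gene symbol from the 24060 genes of the count table: the ankyrins Ank1, Ank2 and Ank3, the alpha spectrin Sptan1, and the beta spectrins Sptbn1 and Sptbn4. All 6 were among the 16449 genes with enough counts to be tested. RNA was sequenced from 3 samples of C57BL/6 mice at embryonic day 18 (E18; replicates 1, 3 and 4) and 3 samples of the same strain at postnatal day 5 (P5; replicates 6, 8 and 9), and no treatment or transgene is named for either group. The comparison sets the age at which RGCs extend axons readily against an age at which this capacity is reduced. At both ages, RGCs were freed from retinas with papain, depleted of macrophages and held on dishes coated with antibody to CD90 (Thy1), so that each sample holds RNA of the selected cells in bulk. The number of animals behind a sample is not given in the sources used here, so p-values measure the spread between these samples, which may be technical. The column of E18 replicate 1 carries the numbers 1, 2 and 5, and if it pools several preparations it does not vary as a single one would.

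Ankyrins are adaptors that tie ion channels, pumps and cell adhesion molecules to spectrin, and spectrin tetramers of alpha and beta subunits link short actin filaments into the periodic skeleton beneath the axon membrane. Ank3 encodes ankyrin-G, the organizer of the axon initial segment and the nodes of Ranvier, where it recruits beta-IV spectrin (Sptbn4). Ank2 encodes ankyrin-B, which with alpha-II (Sptan1) and beta-II spectrin (Sptbn1) lines the more distal axon, and Ank1 encodes ankyrin-R, known from red blood cells and also found in neurons. In the optic nerve, nodes form as the RGC axons become myelinated after birth.

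Gene counts summed to 81213639 reads in the smallest sample and 114512853 in the largest. The 6 members together took 0.517% to 0.532% of the counted reads at E18 and 0.575% to 0.639% at P5. The summed level of 15 RGC markers was 9900 to 11605 CPM (a gene's count relative to the library size, scaled between samples by the TMM method) at E18 and 10084 to 11113 at P5. Single RGC markers differed both ways, with 5 higher at E18 and 5 lower, beside 20.8% and 22.5% of all genes tested. Thy1, whose protein was used to select the cells, was among the lower ones, with a level 2.24-fold higher at P5. Marker sums of photoreceptors (4.37 to 12.9 CPM) and microglia (1.79 to 3.32 CPM) were low at both ages, and those of amacrine cells (976 to 1289 CPM), Müller glia with astrocytes (476 to 610 CPM) and bipolar cells (50.2 to 98.2 CPM) overlapped between the ages. Among these cell types, the sums that did not overlap were higher at E18: 90.7 to 91.5 against 54.0 to 73.6 CPM for oligodendrocytes, 65.1 to 112 against 41.5 to 47.0 for horizontal cells, and 99.2 to 363 against 74.9 to 95.2 for dividing cells. Single genes did not all follow these sums: of the 6 oligodendrocyte genes tested, 1 was higher at E18 and 2 were lower, while no horizontal or dividing cell gene was lower. Endothelial and pericyte markers reached 72.8 and 64.6 CPM in E18 replicates 1 and 3, against 14.6 to 17.9 in the other samples. Kdr alone, singled out after its values were seen, made up 69.5 and 62.9 CPM of these sums, and of the 8 genes of that list that were tested 3 were lower at E18 and 1 was higher. The part of these markers in the results below was not tested.

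Sequences upstream of the start site are shown for a pair of spectrin genes because Elk-1, an Ets family factor, is the regulator that the study followed. RefSeq windows of 250 bases before a start site (GRCm38.p6, the assembly of mm10) were found for 4 of the 6 members, with 11 start sites among them. Ank1 and Ank3 had none in the table used. The core of the Elk-1 motif (CCGGAAG) and the GC box bound by Sp1 (GGGCGG) were searched on both strands. Of all 32850 windows of this length, 6.91% held the first and 32.7% held the second. Capitals mark the matches, the windows are given 5′ to 3′ on the strand of the gene, and they lie at chr2:29965310-29965559 (plus strand) for Sptan1 and chr7:27446590-27446839 (minus strand) for the start site of Sptbn4 that lies furthest upstream.
Sptan1: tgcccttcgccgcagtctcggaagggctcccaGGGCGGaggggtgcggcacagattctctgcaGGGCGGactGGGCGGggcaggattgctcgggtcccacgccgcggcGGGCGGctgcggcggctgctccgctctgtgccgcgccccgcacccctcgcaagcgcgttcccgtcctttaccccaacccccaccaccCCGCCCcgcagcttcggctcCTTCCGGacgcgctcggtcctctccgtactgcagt
Sptbn4: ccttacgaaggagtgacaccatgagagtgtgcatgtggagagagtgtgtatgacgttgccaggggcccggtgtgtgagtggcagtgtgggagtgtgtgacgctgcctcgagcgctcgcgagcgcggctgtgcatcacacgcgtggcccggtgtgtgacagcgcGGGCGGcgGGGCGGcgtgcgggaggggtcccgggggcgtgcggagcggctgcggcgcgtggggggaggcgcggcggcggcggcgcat
The Sptan1 window held 1 Elk-1 core, on the minus strand, and 5 GC boxes. In the window as printed the core reads CTTCCGG, and the first of these letters lies 35 bases before the start site. The Sptbn4 window held 2 GC boxes, 87 and 79 bases before the start site, and no match to the Elk-1 core. None of the other windows of Ank2, Sptbn1 and Sptbn4 held that core. Both windows shown were rich in G and C (73.6% and 72.0%, against a median of 52.4% over all windows) and in CpG (31 and 33, against a median of 6). These matches describe the letters only. The counts are per gene and do not tell one start site from another.

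The question for each member was whether its RNA differed between E18 and P5 by more than the spread between samples. Ank1 was lower at E18, with a P5 level 1.94-fold above it, Sptbn4 was lower by a smaller margin (1.29-fold), and Ank3 was 1.23-fold higher. Ank2, Sptan1 and Sptbn1 did not pass the test. Adjusted p-values are those of the quasi-likelihood test in edgeR, corrected over all genes tested, with a threshold of 0.05. By this test, 2 of the 6 members were lower at E18, against 22.5% of all genes tested, and 1 was higher, against 20.8%. Together these were 3 of 6 members, near the 43.4% of all genes tested that passed in either direction. The values of one age lay entirely on one side of the other in all 6 members, and the same was true of 56.1% of the genes tested. Their median log2 fold change of E18 over P5 was -0.22. In bulk RNA, fewer cells that express a gene and less RNA of it per cell cannot be told apart.

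**Figure D1:**
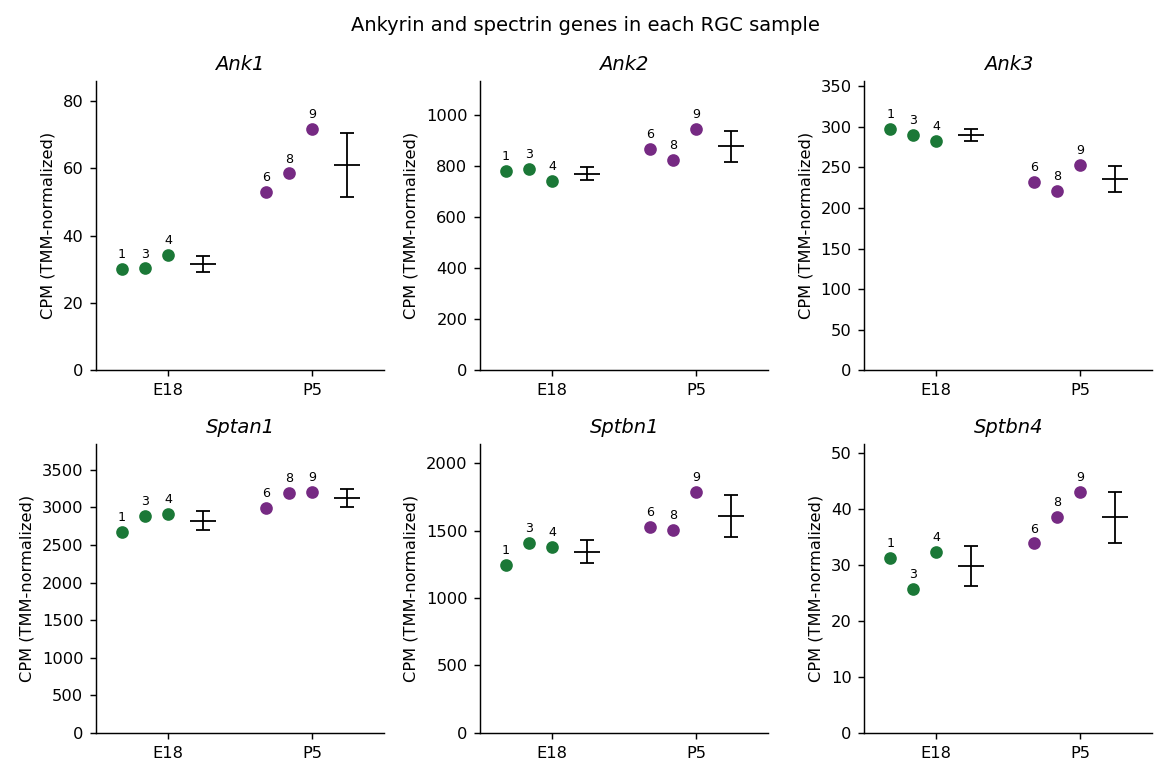
TMM-normalized CPM of the 6 genes in each E18 (green) and P5 (purple) sample, with the replicate number above each point and the mean ± SD (n = 3) beside the points; each vertical axis starts at 0. The ages do not overlap in any panel, and E18 lies above P5 only for Ank3.

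Among the ankyrins, Ank1 (ENSMUSG00000031543.18; chromosome 8 of mm10, 22974844 to 23150497, plus strand) had 30.1, 30.3 and 34.2 CPM in E18 replicates 1, 3 and 4 and 53.0, 58.5 and 71.6 CPM in P5 replicates 6, 8 and 9. Every P5 sample lay above every E18 sample, and the P5 samples were the more spread. The means were 31.5 ± 2.31 and 61.0 ± 9.58 CPM (SD, n = 3). The log2 fold change of E18 over P5 was -0.95 (SE 0.128, edgeR adjusted p = 0.000895), which corresponds to a level 1.94-fold higher at P5 (95% interval 1.58 to 2.37). Ank1 passed the threshold in all 14 alternative fits, with log2 fold changes of -1.06 to -0.82.

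Ank1 is also a red blood cell gene, and the markers of that cell type were examined beside it. Of 12 red blood cell genes in the table, 5 globin genes had no count in any sample. Globin genes are near-identical copies, and reads shared between copies are uncertain in such counts. Alas2, of heme synthesis, had 143 to 203 reads at E18 and 58 to 124 at P5. Slc4a1, the anion exchanger that binds ankyrin-R in red blood cells, had 3 to 12 and 11 to 21 reads. The summed level of the list was 1.79 to 1.91 CPM at E18 and 0.936 to 1.45 CPM at P5. Most of it was Alas2, with means of 1.73 and 1.05 CPM (log2 fold change 0.72, edgeR adjusted p = 0.0732). Slc4a1 was the lower at E18 (-1.25, edgeR adjusted p = 0.128), as Ank1 was, and neither marker passed. The part of red blood cells in the difference of Ank1 was not tested.

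Ank3 (ENSMUSG00000069601.14; chromosome 10, 69398773 to 70027438, plus strand) was the only member with a higher level at E18. It had 297, 290 and 283 CPM in E18 replicates 1, 3 and 4 and 232, 221 and 253 CPM in P5 replicates 6, 8 and 9. The E18 samples lay close together, and the lowest of them stood above the highest P5 sample. The means were 290.1 ± 7.01 and 235 ± 16.0 CPM (SD, n = 3), and E18 exceeded P5 by 0.30 on the log2 scale (SE 0.0849, edgeR adjusted p = 0.0204), or 1.23-fold (95% interval 1.08 to 1.41). The call did not hold without E18 replicate 1 (edgeR adjusted p = 0.0731), without E18 replicate 3 (0.0701) or without P5 replicate 6 (0.0684), with log2 fold changes of 0.24 to 0.35 over the 6 fits that each left out a sample.

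Ank2 (ENSMUSG00000032826.17; chromosome 3, 126921612 to 127499350, minus strand) had 780, 789 and 742 CPM at E18 and 866, 824 and 944 CPM at P5, in the same order of replicates. The ages did not overlap, but the gap between them was small beside the range at P5. The log2 fold change was -0.19 (SE 0.0843, edgeR adjusted p = 0.101), with a 95% interval of -0.38 to 0.00. Without P5 replicate 8 the gene passed (log2 fold change -0.25, edgeR adjusted p = 0.0403).

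Among the spectrins, Sptan1 (ENSMUSG00000057738.13; chromosome 2, 29965560 to 30031451, plus strand), the alpha subunit that pairs with the neuronal beta spectrins, was the most abundant. It had 2676, 2890 and 2914 CPM at E18 and 2994, 3193 and 3207 CPM at P5. All 3 P5 values were above the E18 values, by little for P5 replicate 6. The log2 fold change was -0.15 (SE 0.0767, edgeR adjusted p = 0.149), and its 95% interval ran from -0.32 to 0.03, which includes a P5 level 1.25-fold higher. Sptan1 did not pass in any alternative fit.

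Sptbn1 (ENSMUSG00000020315.18; chromosome 11, 30099395 to 30268175, minus strand), the beta-II spectrin of the axon shaft, had 1245, 1408 and 1382 CPM at E18 and 1530, 1503 and 1787 CPM at P5. P5 replicate 9 stood apart from the other P5 samples at the high end. The log2 fold change was -0.26 (SE 0.0966, edgeR adjusted p = 0.0594), with a 95% interval of -0.48 to -0.04 that is not adjusted for the number of genes. Sptbn1 passed in 3 of 14 alternative fits: with library totals as the only scaling (edgeR adjusted p = 0.0306), with genes of at least 10 CPM only (0.0381) and without P5 replicate 8 (0.0326).

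Sptbn4 (ENSMUSG00000011751.16; chromosome 7, 27356383 to 27447686, minus strand), the beta-IV spectrin of initial segments and nodes, had 31.3, 25.8 and 32.4 CPM at E18 and 33.9, 38.6 and 43.1 CPM at P5. E18 replicate 4 and P5 replicate 6 were nearly level. The log2 fold change was -0.37 (SE 0.129, edgeR adjusted p = 0.0457), or 1.29-fold higher at P5 (95% interval 1.05 to 1.58). The call was close to the threshold. It held in 1 of the 6 fits that left out a sample, the one without P5 replicate 6, and was lost without E18 replicate 1 (edgeR adjusted p = 0.0884), 3 (0.184) or 4 (0.0588), without P5 replicate 8 (0.0520) or 9 (0.138), and with upper-quartile scaling (0.0546).

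**Figure D2:**
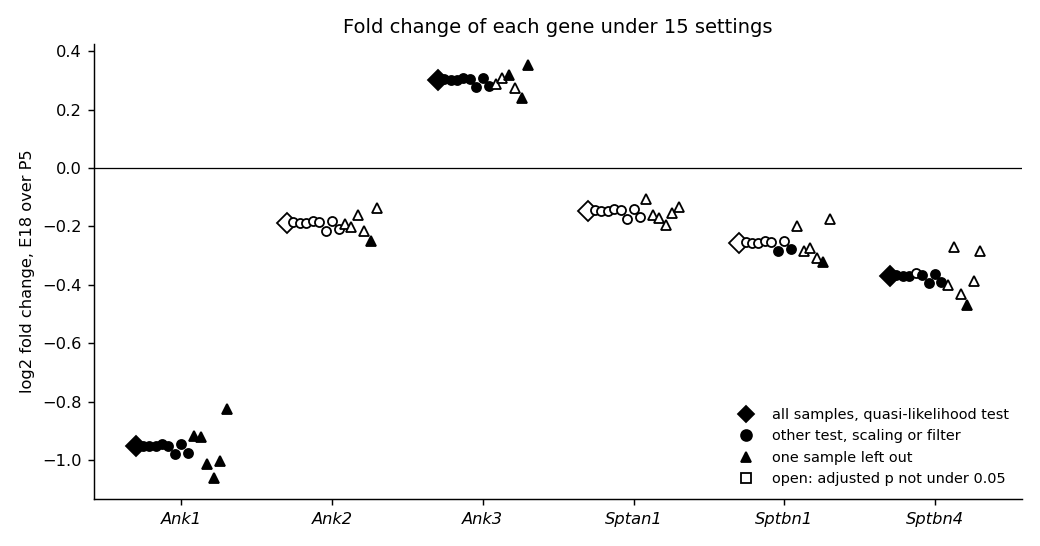
Log2 fold change of E18 over P5 for each gene (vertical axis) with all samples (diamond), under 8 other tests, scalings or filters (circles) and with one sample left out (triangles); filled symbols have an adjusted p under 0.05. Ank1 passed in every fit shown, Ank3 and Sptbn4 lost the threshold in some, and no gene changed sign.

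Counting error was small beside the differences between samples. The lowest count of any member was 2499 reads, for Ank1 in E18 replicate 1. The coefficient of variation between samples ran from 2.42% (Ank3 at E18) to 15.7% (Ank1 at P5), against a counting error of 0.212% to 2% at each member's lowest count. Exons of Ank1 share 862 bases, 6.37% of their length, with Gm15816 on the opposite strand. Whether reads were assigned by strand is not given in the sources used here, so reads of this stretch cannot be told apart. Gm15816 itself had 40 to 98 reads per sample.

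Levels of different genes were compared per kilobase of exon, since longer transcripts collect more reads. With all annotated exons of a gene merged, the order at E18 was Sptan1 with 212 ± 9.83 CPM per kb (SD, n = 3), Sptbn1 with 76.9 ± 5.0, Ank2 with 22.0 ± 0.721, Ank3 with 8.33 ± 0.201, Sptbn4 with 3.12 ± 0.367 and Ank1 with 2.33 ± 0.171. At P5, the level of Sptan1 was 234 ± 8.91 CPM per kb, that of Sptbn1 91.8 ± 8.97, that of Ank2 25.1 ± 1.74, that of Ank3 6.75 ± 0.458, that of Ank1 4.51 ± 0.708 and that of Sptbn4 4.03 ± 0.482. The 4 most abundant members kept their order at both ages, with no overlap between neighbors. Ank1 and Sptbn4 lay apart at E18 and overlapped at P5, with 3.92 to 5.30 and 3.54 to 4.51 CPM per kb. With the longest transcript as the length, Ank1 stood above Sptbn4 at both ages (3.77 against 3.41 CPM per kb at E18, and 7.30 against 4.40 at P5). The merged exons of Ank2 and Ank3, 35004 and 34838 bases, include long alternative exons and retained introns that no single transcript holds, so their levels per kb are low estimates.

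Within the ankyrins, none of the shares overlapped between the ages. Of the summed level per kb of the 3 genes, Ank3 made up 25.5% ± 0.341 at E18 and 18.6% ± 0.255 at P5 (SD, n = 3), and Ank1 made up 7.14% ± 0.687 and 12.4% ± 1.18. The share of Ank2 was 67.4% ± 0.787 and 69.0% ± 0.922, with the highest E18 sample (68.1%) just under the lowest P5 sample (68.2%). With the longest transcript as the length the share of Ank3 was 33.6% and 25.6%, and that of Ank1 was 4.35% and 7.88%.

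**Figure D3:**
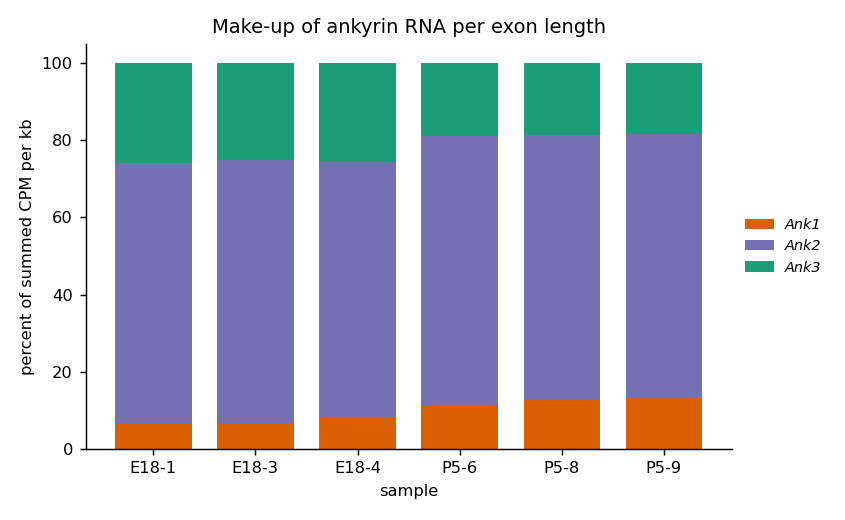
Share of the summed CPM per kb of merged exons (vertical axis, percent) taken by each ankyrin in the 6 samples (horizontal axis). The share of Ank3 is smaller and that of Ank1 is larger in every P5 sample than in any E18 sample.

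Ratios within a sample do not depend on how the libraries were scaled. The log2 ratio of Ank3 to Ank2 was -1.39, -1.44 and -1.39 in E18 replicates 1, 3 and 4 and -1.90, -1.90 and -1.90 in P5 replicates 6, 8 and 9. The P5 samples were almost equal in this ratio (SD 0.00244), although both genes differed between them in CPM. The difference between the ages was 0.49 on the log2 scale (exact permutation p = 0.1, two-sided, adjusted p = 0.2 over 4 ratios), the smallest p that 3 samples against 3 can give. The log2 ratio of Ank1 to Ank2 was -4.69, -4.71 and -4.44 at E18 and -4.03, -3.82 and -3.72 at P5, a difference of -0.76 with the same p and no overlap. The ratio of Sptbn4 to Sptbn1 overlapped between the ages (-5.77 to -5.31 and -5.50 to -5.28; exact permutation p = 0.6, adjusted p = 0.6), as did that of Sptbn1 to Sptan1 (-1.10 to -1.04 and -1.09 to -0.84; exact permutation p = 0.3, adjusted p = 0.4).

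**Figure D4:**
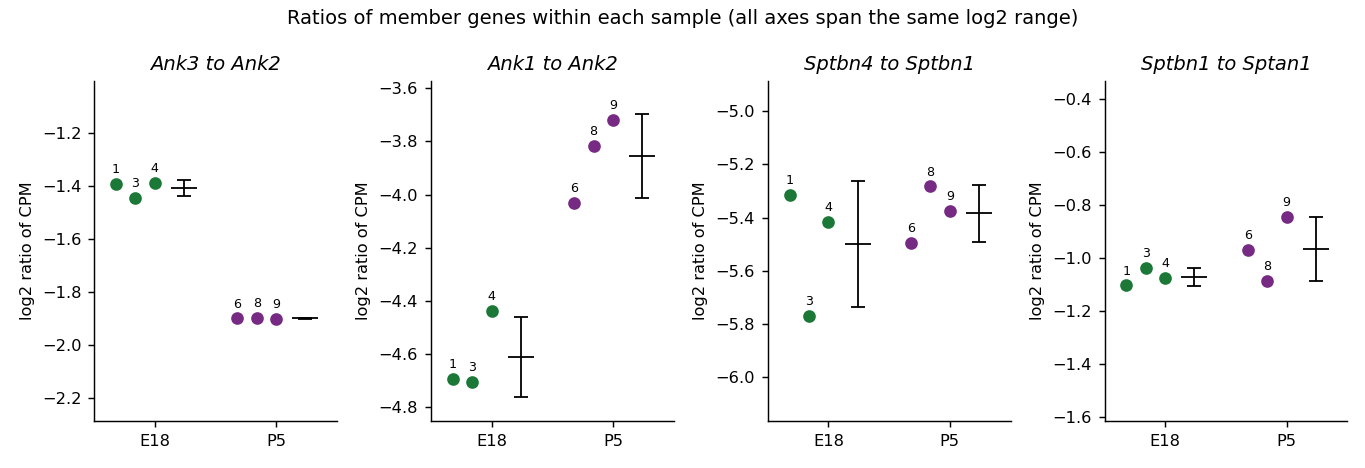
Log2 ratio of the CPM of a pair of genes within each E18 (green) and P5 (purple) sample, with the replicate number above each point and the mean ± SD (n = 3) beside the points; all vertical axes span the same range. The ratio of Ank3 to Ank2 is lower in every P5 sample than in every E18 sample, and that of Ank1 to Ank2 is higher.

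Among the remaining spectrins, Sptb, the beta-I spectrin that partners ankyrin-R in red blood cells and is also found in neurons, had 158, 148 and 223 CPM at E18 and 279, 287 and 384 CPM at P5. Its samples did not overlap between the ages, and its log2 fold change of -0.84 (SE 0.179, edgeR adjusted p = 0.00630) lay beside that of Ank1. Sptbn5 is not analysed here.

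Partners of the members were taken from 6 further lists, written with earlier results of these data known and not picked for how they moved. Over these and the remaining spectrins, 62 genes were tested, of which 33 were lower at E18 and 9 higher, with a median log2 fold change of -0.41. Over all genes tested, 22.5% were lower and 20.8% higher, and the median was 0.00. The L1 family receptors, adhesion molecules that bind ankyrins directly, were divided. Nfasc, the neurofascin of initial segments and nodes, was higher at E18 (244 ± 4.15 against 175 ± 19.1 CPM, log2 fold change 0.48, edgeR adjusted p = 0.00507). Chl1 was lower (-0.62, adjusted p = 0.0155), a call that was lost without E18 replicate 3, and L1cam (0.13, adjusted p = 0.295) and Nrcam (0.09, adjusted p = 0.463) did not pass.

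Among 17 partners at the initial segment and node, 10 were lower at E18 and 1 was higher, beside 22.5% and 20.8% of all genes tested. The sodium channel subunits that ankyrin-G anchors were lower, with log2 fold changes of -1.15 for Scn2a1 and -0.79 for Scn8a. Kcnq3, a subunit of the M-type potassium channel that binds ankyrin-G, was also lower (-0.88, edgeR adjusted p = 0.00107). Trim46, which bundles microtubules at the initial segment, was the gene that was higher (0.32, adjusted p = 0.0429). This did not hold without E18 replicate 1 or 4 or without P5 replicate 6 or 9. Ank3 itself was higher at E18, so the anchor and most of the channel genes on this list differed in opposite directions.

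Of 8 paranode and juxtaparanode genes, 6 were lower at E18 and none was higher, although 1 was higher without P5 replicate 9. The shares over all genes tested were 22.5% lower and 20.8% higher. Cntn1, the contactin of the paranodal junction, averaged 256 ± 32.4 CPM in the E18 samples and 1157 ± 241 CPM in the P5 samples (SD, n = 3), the largest deficit at E18 in this list with a log2 fold change of -2.17 (edgeR adjusted p = 0.000118). Its partner Cntnap1 varied widely at P5, with 48.7, 25.9 and 100.4 CPM in replicates 6, 8 and 9 (log2 fold change -1.54, adjusted p = 0.0153). Epb41l3, the protein 4.1B that links this complex to spectrin, was lower by less (-0.47, adjusted p = 0.0156). All 10 cargoes and adaptors of ankyrin-B passed as lower at E18, as did 22.5% of all genes tested. They ranged from Dctn4, a dynactin subunit that binds ankyrin-B (-0.29, edgeR adjusted p = 0.0247, named after its value was seen), to the inositol trisphosphate receptor Itpr1 (-2.56, adjusted p = 0.000477). The sodium pump subunit Atp1b1 had a log2 fold change of -2.30, while that of Ank2 was -0.19.

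The 17 genes that complete the spectrin and actin skeleton went both ways, with 7 higher at E18 and 3 lower, where 20.8% and 22.5% of all genes tested were. The adducins, which cap actin and recruit spectrin to it, differed from one another. Add2 was higher at E18 (0.41, edgeR adjusted p = 0.00822), Add1 did not pass (-0.03, adjusted p = 0.807, 95% interval -0.21 to 0.15), and Add3 had the largest deficit at E18, with 36.0 ± 2.09 CPM against 186 ± 36.5 CPM at P5 (SD, n = 3, log2 fold change -2.37, adjusted p = 6.3e-05). Epb41, the protein 4.1R that joins spectrin to actin, had the largest excess at E18 (1.11, adjusted p = 0.00178). Actb (0.24, adjusted p = 0.0297) was higher, Tmod2, a neuronal actin cap, was lower (-0.44, adjusted p = 0.00283), and Myh10, a non-muscle myosin, did not pass (0.19, adjusted p = 0.113). In the calpain system, whose proteases cut spectrin, 2 of 4 genes were lower at E18 and none was higher, beside 22.5% and 20.8% of all genes tested. The inhibitor Cast was 4.21-fold higher at P5 (log2 difference -2.07, edgeR adjusted p = 0.000518). The catalytic subunits Capn1 (-0.26, adjusted p = 0.253) and Capn2 (-0.24, adjusted p = 0.0541) did not pass, but all 4 genes of this list were lower at E18 without P5 replicate 8.

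**Figure D5:**
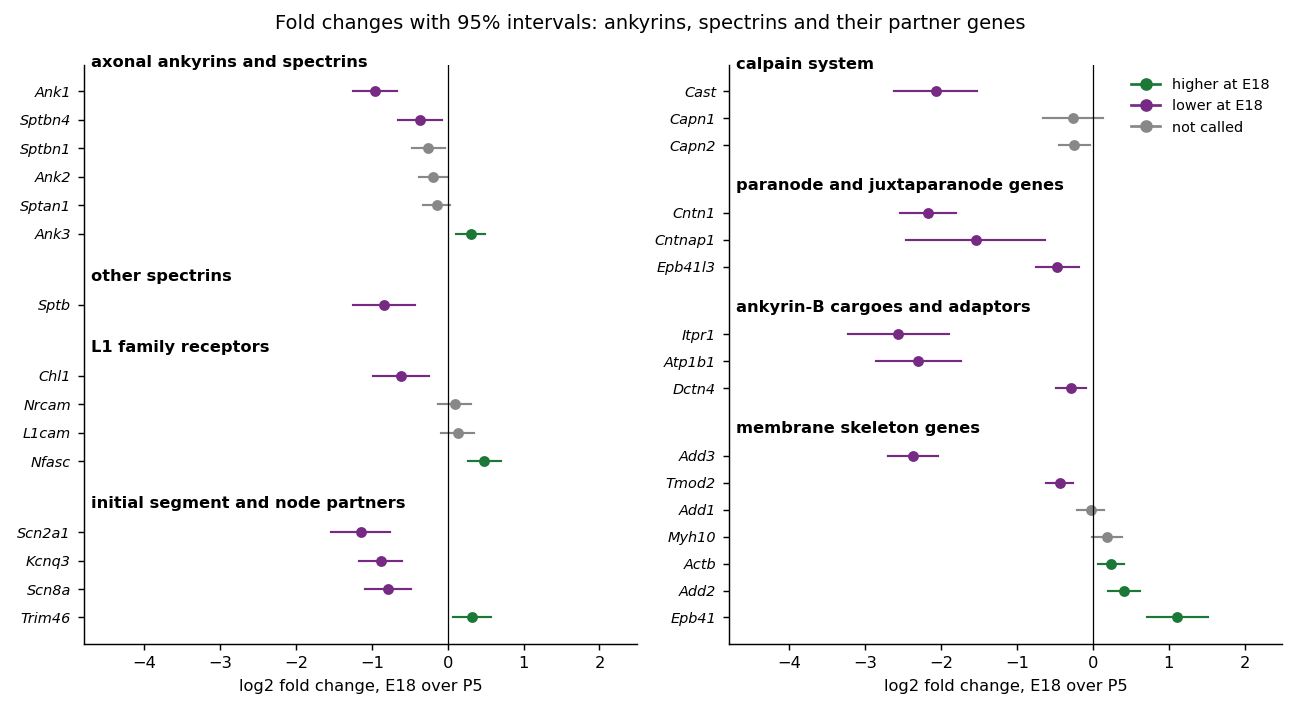
Log2 fold change of E18 over P5 (horizontal axis) with its 95% interval for the 6 genes and for the 25 partner genes named in the text, grouped by list; green marks genes higher at E18, purple genes lower at E18 and gray genes that did not pass. The channel, paranode and ankyrin-B partner genes drawn, other than Trim46, lie further left than Ank2, Ank3 and the spectrins Sptan1 and Sptbn1.

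For each member, the genes with the most similar profile over the 6 samples were sought by Pearson's r of log2(CPM + 1) among 9724 other genes of at least 10 CPM. These values describe 6 points in 2 age groups and carry no test. The nearest genes were Tspan9 for Ank1 (r = 0.999), Timm17a for Ank2 (0.994), Atp1b3 for Ank3 (0.996), Dnajc16 for Sptan1 (0.995), Tmem41a for Sptbn1 (0.990) and Atp8a2 for Sptbn4 (0.994). The next were Pnma3 and 5730409E04Rik for Ank1, Ndufb7 and Ldhb for Ank2, Slc2a1 for Ank3, Lamtor3 for Sptan1, Itpk1 and Ppme1 for Sptbn1, and Atp1b2 and Ube2v1 for Sptbn4. Similar profiles did not mean similar size, since Atp1b3 and Slc2a1 both tracked Ank3 with log2 fold changes of 0.10 and 1.84.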

How the data were processed

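The authors sequenced paired-end reads from libraries depleted of ribosomal RNA, which STAR aligned to mm10 and HT-seq assigned to RefSeq genes. The labels give the molecule as polyA RNA, and the submitters' processing notes also name CASAVA 1.8.2. Raw counts per gene were deposited by the authors and are the only values used. The deposited normalized counts (a signal scaled by the authors), log2 fold changes and p-values with false discovery rates from edgeR, and a rank were left out. The first E18 column carries the numbers 1, 2 and 5, and was taken as replicate 1. Whether it pools several preparations is not given in the sources used here. Samples of one age differed by more than sampling noise (chi-square of 30.5 to 141 per degree of freedom).

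For each gene that passed edgeR's expression filter, TMM-scaled counts were compared by the quasi-likelihood method of edgeR 4.0.16 under R 4.3.3, with Benjamini-Hochberg adjustment over 16449 genes and a threshold of 0.05. Standard errors and 95% intervals of the log2 fold changes, E18 over P5, come from that fit. CPM use the TMM-scaled library sizes. The fit was tested on simulated data in which 200 genes were changed 2-fold. It recovered 118 of them, all in the right direction, and made 8 false calls. No smaller fold was simulated. Ratios were compared by an exact permutation test. Coordinates and exon lengths are from GENCODE vM21, promoter windows from RefSeq. Older symbols (Epb4.1 for Epb41) were matched through RefSeq synonyms.

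The members and gene lists were chosen with earlier results of these data known. Named are the members, fixed partners of each list, the called genes with the largest difference in each direction in a list, and the 3 most similar profiles, except some that are not reported here. Other settings tried were the likelihood ratio and exact tests of edgeR, DESeq2 1.42.0, other scalings and filters, the omission of each sample, a pseudocount of 1 for ratios and the longest transcript for levels.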

Additional observations from a re-analysis of the deposited data

How the results depend on the processing

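No fold change of the 6 members reversed in any of the 14 alternative fits. The number of members called was 3 and fell to 1 without E18 replicate 1 or without E18 replicate 3, so that the range over the fits that left out one sample was 1 to 4, highest without P5 replicate 8. Over all genes, 7135 were called, 4575 to 8796 when one sample was left out (lowest without E18 replicate 3, highest without P5 replicate 8), and 4646 when testing was limited to the 9726 genes that averaged 10 CPM or more. These fits hold fewer samples or fewer genes, but the number called rose in the fit without P5 replicate 8. The cause of these changes was not tested. The difference in the log2 ratio of Sptbn4 to Sptbn1 was -0.12, ranged from -0.21 to 0.020 when one sample was left out, and reversed without E18 replicate 3 (0.020). The other ratio differences kept their sign in every alternative run. Another scaling moved the median log2 fold change of all genes by less than 0.1. No paired analysis was possible because the ages share no replicate number. With the longest transcript in place of merged exons, 10 of the 12 levels per kb moved by more than their SD. With 3 samples against 3, the exact permutation test cannot give a p under 0.1, and the spread between samples, not the depth, limits the members' precision.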

Other observations

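P5 replicate 9 had the highest CPM of the P5 samples in all 6 members and in 35 of the 62 partner genes tested (56.5%), against 33.2% of all genes tested. At E18, the highest sample was replicate 4 for 3 members, replicate 3 for 2 and replicate 1 for 1, and over all genes tested it was replicate 4 in 40.9%. This pattern was noticed after the values were seen and carries no test.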
